A study of Rattus norvegicus with 10 samples.

Results

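The rats compared were 8 male Lewis rats, an inbred strain, set apart by their score in a sugar feeding test, with 1 expression array of prefrontal cortex each. The labels of all 10 rats of the series give that score, without a unit. A score above 1.6 placed rats 1, 2, 3 and 7 in the high sugar feeding group, and a score below 1 placed rats 5, 6, 8 and 9 in the low sugar feeding group. Rats 4 and 10, with scores of 1.5 and 1.15, lay between and were left out of the comparison. Both groups were untreated, weighed 200 to 250 g, came from a set of 40 rats put through several behaviour tests, and were killed in random order 6 days after the last test. The tissue was frontal cortex (areas Fr1 and Fr2) taken without the olfactory bulb. The labels give no age and no hour of death. They do not say whether rats shared a litter, so p-values measure the spread between these rats.

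Intake of sweet food is driven by hunger circuits of the hypothalamus and by reward circuits in which dopamine, opioid and endocannabinoid signals act on the striatum and the prefrontal cortex. The prefrontal cortex holds excitatory neurons in layers, several kinds of inhibitory interneurons and glia, and it sends output to the striatum that bears on the choice and pursuit of food. Since all rats shared 1 inbred strain, the comparison asked whether transcript levels in this tissue differed between rats that differed in a trait and not in strain.

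The score that defined the groups was 1.95, 1.65, 2 and 2.15 in high sugar feeding rats 1, 2, 3 and 7, against 0, 0.95, 0.5 and 0.65 in low sugar feeding rats 5, 6, 8 and 9. The groups also differed in how far they moved. Locomotion was 14415 ± 1799 in high sugar feeding rats and 10623 ± 453 in low sugar feeding rats (SD, n = 4 each), and the groups did not overlap (exact permutation test, two-sided, p = 0.0286, the smallest that 4 against 4 allows, adjusted p = 0.114 over 4 scores). Prepulse inhibition, in which a faint sound reduces the reaction to a loud one, was 15.7 ± 8.8 in high and 35.6 ± 6.9 in low sugar feeding rats (SD, n = 4 each, exact permutation p = 0.0571, adjusted p = 0.114). Its groups overlapped through rats 7 and 6. Startle was 597 ± 273 in high and 793 ± 131 in low sugar feeding rats (SD, n = 4 each, exact permutation p = 0.286, adjusted p = 0.286). The plus maze score was given for 3 high sugar feeding rats, at 12.1, 0 and 0, and for 2 low sugar feeding rats, at 60.3 and 5.01 (exact permutation p = 0.2, adjusted p = 0.267, where 0.1 is the smallest this design allows). None of the 4 scores passed the adjusted threshold of 0.05. Because locomotion separated the same rats completely, sugar feeding and locomotion cannot be told apart in these groups.

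**Figure D1:**
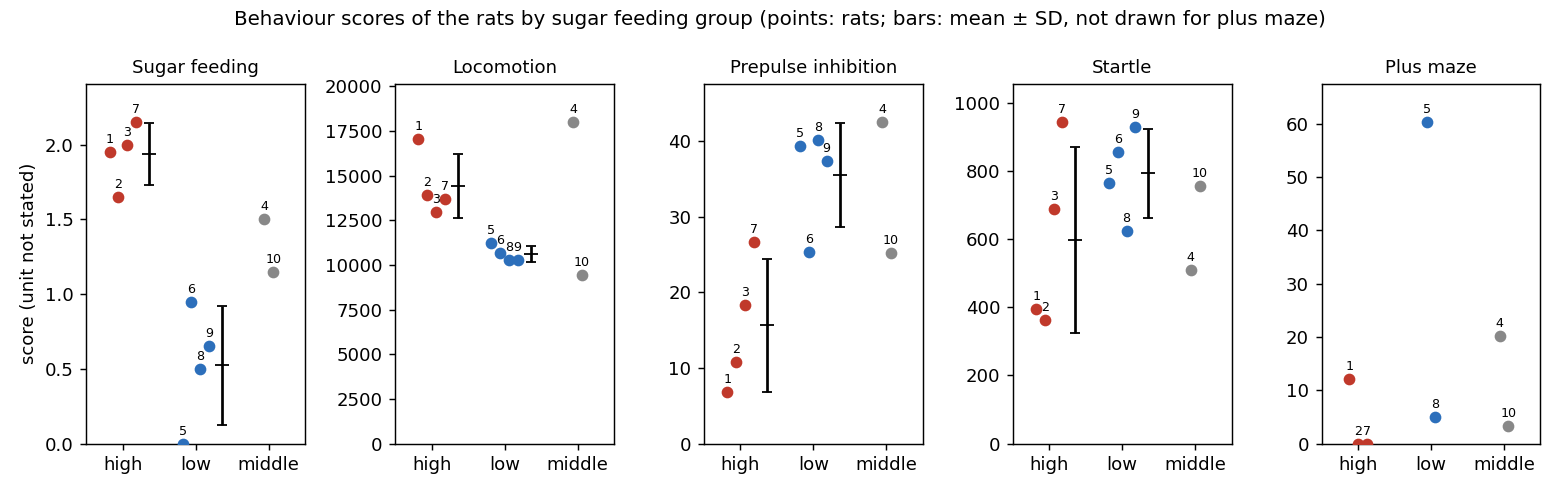
Scores of each rat (points, numbered; unit not stated) in the high, low and middle sugar feeding groups, with mean ± SD for the high and low groups except in the plus maze panel. Locomotion of the high sugar feeding rats lay above that of every low sugar feeding rat, and rat 4, of the middle group, moved most.

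No array measure differed past its threshold between the groups. Pairs of the 8 arrays correlated across probe sets at 0.995 to 0.999. The mean of the spike-in controls was 6.38 ± 0.12 log2 in high and 6.31 ± 0.06 log2 in low sugar feeding rats (SD, n = 4 each, exact permutation p = 0.257). For array medians, upper quartiles and unnamed probe sets the exact permutation p was 0.571 to 0.857. The difference between the 3' and 5' probe sets of beta-actin, a measure of RNA integrity, was 2.42 ± 0.12 log2 in high and 2.34 ± 0.04 log2 in low sugar feeding rats (SD, n = 4 each, exact permutation p = 0.286). For hexokinase it was 0.97 ± 0.15 log2 in high and 0.83 ± 0.15 log2 in low sugar feeding rats (SD, n = 4 each, exact permutation p = 0.257). Rat 7 was highest of the 10 rats for beta-actin, GAPDH and hexokinase, at 2.59, 0.32 and 1.18 log2, and the part of RNA integrity in the values of rat 7 given below was not tested. The number of arrays limits the precision, and the median SE of a difference was 0.061 log2 over all genes tested. Of the cortical markers 11 of 13 measured superficial layer and 15 of 19 deep layer genes lay above the brightness limit, a mean log2 of 3.99 over 10 rats. So did 8483 of all 14217 genes tested and 15 of 21 striatal projection neuron markers, so passing the limit does not by itself mark the tissue. Of the olfactory bulb markers 5 of 12 passed it. They were Etv1, also in the deep layer list, at 12.77, Cpne4 at 8.61, Tshz1 at 8.44, Cdhr1 at 4.34 and Nmb at 4.12 log2. Omp, Th and Eomes were among those below the limit.

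No gene passed an adjusted p of 0.05 between high and low sugar feeding rats. Of 14217 genes tested by limma, 0 (0%) passed, and the smallest adjusted p was 0.992. At an unadjusted p under 0.05, 161 genes (1.13%) were higher in high sugar feeding rats and 99 (0.696%) were lower. The groups did not overlap for 74 genes (0.521%) that were higher and 63 (0.443%) that were lower. The differences were small: over the 8483 brighter genes the median size was 0.054 log2, beside a median SE of 0.083 log2. The genes below are those of smallest p or largest difference, and no call rests on them.

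The 10 genes of smallest p that were higher in high sugar feeding rats had differences of 0.11 to 0.34 log2. Ostf1, an SH3-domain adaptor first known from osteoclasts, was at 7.34, 7.36, 7.36 and 7.36 log2 in high sugar feeding rats 1, 2, 3 and 7, against 6.89, 7.12, 7.10 and 7.14 log2 in low sugar feeding rats 5, 6, 8 and 9. The high rats lay within 0.02 log2 of each other and rat 5, the rat with a score of 0, was lowest. The difference was 0.29 ± 0.06 log2 (SE, n = 4 each), a 1.22-fold higher level. Tsr1, a factor of small ribosomal subunit assembly, was at 7.75, 7.88, 7.86 and 7.91 log2 in high and 7.71, 7.63, 7.59 and 7.55 log2 in low sugar feeding rats. Its groups were separated by 0.04 log2 and the difference was 0.23 ± 0.05 log2. Cwc15, a spliceosome protein gene, differed by 0.11 ± 0.03 log2, and Zmym5, a zinc finger protein gene, by 0.34 ± 0.08 log2 with another, dimmer probe set at 0.11.

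Metabolic, motor and membrane genes made up the rest of those 10. Sms encodes spermine synthase, which makes the polyamine spermine, and was at 11.18, 11.20, 11.20 and 11.23 log2 in high sugar feeding rats, against 10.95 to 11.11 log2 in low sugar feeding rats. The groups did not overlap, with a difference of 0.17 ± 0.04 log2 (SE, n = 4 each), while another Sms probe set had -0.02. Myo5b, a motor of recycling vesicles, differed by 0.19 ± 0.04 log2. The chaperone gene Hspa2 differed by 0.16 ± 0.04 log2, the lysosomal transporter family gene Slc7a14 by 0.19 ± 0.05 and the synaptic adhesion gene LRRTM1 by 0.26 ± 0.07. Pcdhb17, of the clustered protocadherins, differed by 0.11 ± 0.02 log2, and its signal is uncertain because members of that cluster are alike in sequence, as Hspa2 is to other Hsp70 genes.

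Of the 10 genes of smallest p that were lower in high sugar feeding rats, Crhbp belongs to the stress list. It encodes a secreted protein that binds the stress peptide CRH and is made by cortical somatostatin interneurons. Crhbp was at 5.91, 5.84, 6.02 and 5.78 log2 in high sugar feeding rats 1, 2, 3 and 7, against 6.20, 6.12, 6.17 and 6.11 log2 in low sugar feeding rats 5, 6, 8 and 9. All high rats lay below all low rats, and the difference was -0.26 ± 0.05 log2 (SE, n = 4 each), a ratio of 0.832. Rat 4 of the middle group had the highest Crhbp of all 10 rats, at 6.55 log2. Sst, the somatostatin gene itself, was at 10.40 ± 0.10 log2 in high and 10.45 ± 0.12 log2 in low sugar feeding rats (SD, n = 4 each).

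Nucleotide, growth signalling and translation genes were also in that set. Aprt, which salvages adenine, was at 9.41, 9.28, 9.39 and 9.39 log2 in high and 9.51, 9.56, 9.58 and 9.57 log2 in low sugar feeding rats, a difference of -0.19 ± 0.03 log2 (SE, n = 4 each) without overlap. Mlst8, a subunit of the mTOR kinase complexes, was at 7.57, 7.66, 7.52 and 7.63 log2 in high and 7.76, 7.75, 7.95 and 7.81 log2 in low sugar feeding rats. Its difference was -0.22 ± 0.05 log2, again without overlap. Castor2, of the CASTOR family of arginine-linked mTORC1 regulators, stood on the other side at 0.43 ± 0.12 log2. Dhps, the enzyme that begins the spermidine-derived hypusine modification of eIF5A, had -0.22 ± 0.05 log2. Spermidine is also the substrate of the Sms enzyme.

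The other members were Wrn, a DNA helicase gene (-0.18 ± 0.04 log2), Arl2, a small GTPase of tubulin folding (-0.36 ± 0.08), Lrrc24 (-0.22 ± 0.06), Tmem63b, a mechanosensitive channel gene (-0.15 ± 0.04) and Meaf6, of the NuA4 histone acetyltransferase complex (-0.15 ± 0.04). Groups overlapped for Lrrc24 alone among the 20. The clock gene Bhlhe40 is described with its pathway. All 20 genes kept their sign under each of the 21 other settings tried on them. They were chosen for small p in these same rats, so this is no independent support. The brightness filter, the variance model and the fit of all 10 rats in 3 groups cannot change a difference. With locomotion as a covariate 10 of the 20 had an unadjusted p under 0.05, and with prepulse inhibition as a covariate 11 did. The median ratio to the reported difference was 1.09 and 0.992, but the median SE rose from 0.0489 log2 to 0.0895 and 0.0824. Values with either covariate, here and below, are thus less precise. With locomotion as a covariate the log2 difference was 0.19 for Zmym5, 0.08 for Myo5b, 0.05 for Cwc15, 0.08 for Slc7a14, 0.44 for LRRTM1, -0.39 for Bhlhe40, -0.14 for Lrrc24 and -0.09 for Tmem63b. With prepulse inhibition it was 0.26 for Sms, 0.16 for Zmym5, 0.10 for Hspa2, 0.04 for Slc7a14, 0.46 for LRRTM1, -0.57 for Arl2, -0.47 for Bhlhe40 and -0.09 for Tmem63b. The mean of all probe sets gave 0.075 for Sms, 0.23 for Zmym5, 0.10 for Hspa2 and -0.06 for Tmem63b, and the 5 highest against the 5 lowest scores gave 0.19 for Pcdhb17 and -0.14 for Crhbp.

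**Figure D2:**
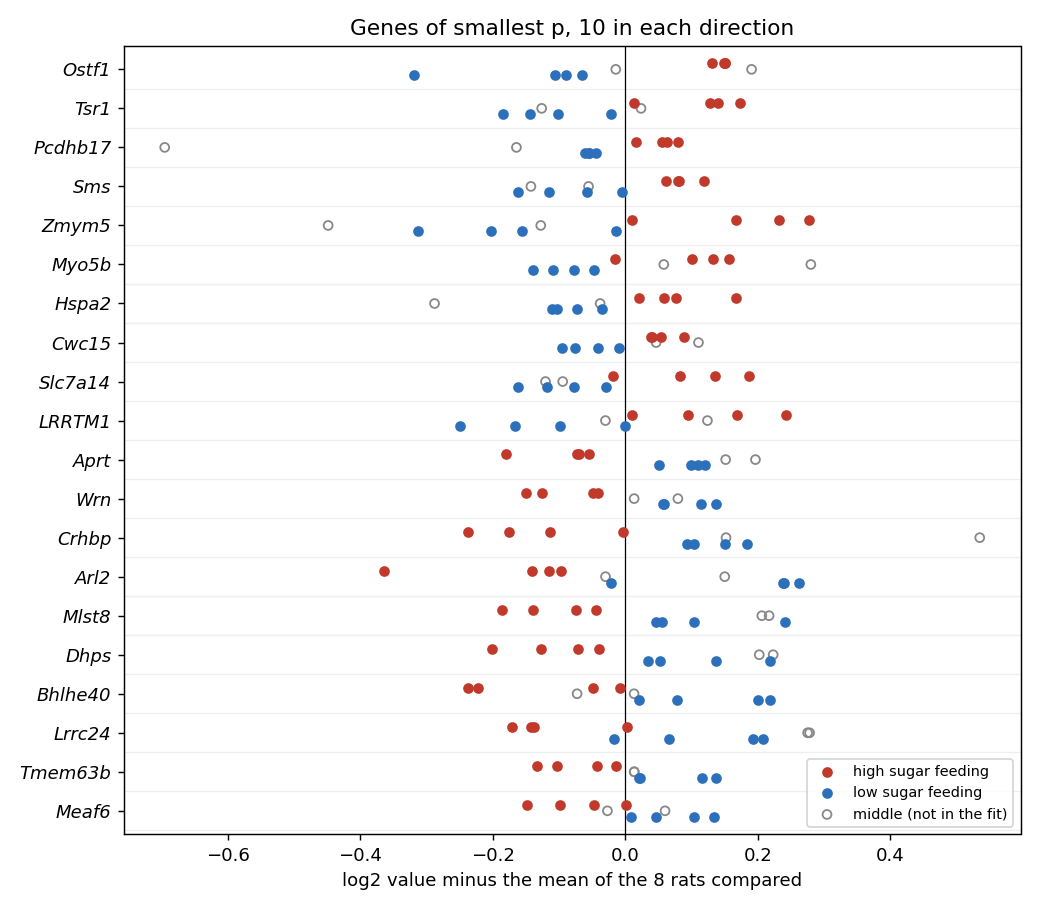
Log2 value of each rat minus the mean of the 8 rats compared (x axis) for the 10 genes of smallest p higher in high sugar feeding rats (upper rows) and the 10 lower (lower rows). Filled points are the high and low sugar feeding rats, open points are the 2 middle rats, and Lrrc24 is the 1 gene of the 20 whose groups overlapped.

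Rats 4 and 10 were not used in the p-values that chose these genes. Their values did enter the choice of probe set and the brightness limit, which are means over 10 rats. The score of rat 4 (1.5) was above the midpoint of the group means, 1.23, and that of rat 10 (1.15) below it. Rat 4 lay on the high group's side of the expression midpoint for 6 of the 20 genes, and for 82 of the 249 brighter genes of unadjusted p under 0.05 (32.9%). Over all 8483 brighter genes it did so for 47.2%. The share differed by direction, for which no share over all brighter genes was computed. For the 158 genes that were higher in high sugar feeding rats, rat 4 lay on their side for 71 (44.9%), and for the 91 lower genes for 11 (12.1%). Rat 10 lay on the high group's side for 87 of the 249 genes (34.9%), against 44.7% of all brighter genes. For rat 10 these shares were 63 of 158 (39.9%) and 24 of 91 (26.4%).

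Of the 10 largest differences without overlap, 5 in each direction, Arl2 is among the 20 genes above. Ryr3, a calcium release channel of the endoplasmic reticulum, was at 4.91, 5.12, 4.62 and 5.99 log2 in high and 4.57, 4.33, 4.57 and 4.51 log2 in low sugar feeding rats. The difference was 0.66 ± 0.27 log2 (SE, n = 4 each), 0.39 without rat 7 and 1.32 with prepulse inhibition as a covariate. Pan3, of the poly(A) nuclease complex, differed by 0.48 ± 0.15 log2, the splicing factor gene Prpf3 by 0.35 ± 0.11 and the DNA repair gene Ercc5 by 0.35 ± 0.12. On the lower side, Kcns1, a modifier subunit of Kv2 potassium channels, was at 3.99, 4.33, 4.47 and 4.36 log2 in high and 4.96, 5.01, 4.52 and 4.48 log2 in low sugar feeding rats. Its difference was -0.46 ± 0.16 log2, and the nearest rats of the groups were 0.01 log2 apart. Ccdc124 had -0.43 ± 0.14, Mta3, of the NuRD chromatin complex, -0.38 ± 0.13 and Cdc42ep1, an effector of the Cdc42 GTPase, -0.37 ± 0.11 log2. With prepulse inhibition as a covariate Pan3 had 0.09, Prpf3 0.03, Castor2 0.28 and Mta3 -0.78 log2. With locomotion Pan3 had 0.20, Castor2 0.15, Ercc5 0.71 and Kcns1 -0.16 log2. The mean of all probe sets gave 0.24 for Pan3, 0.11 for Prpf3 and -0.20 for Mta3. With the 5 highest against the 5 lowest scores Castor2 had 0.28, Kcns1 -0.22 and Cdc42ep1 -0.23 log2. Ercc5 had 0.23 log2 without rat 3, and Ccdc124 -0.26 without rats 3 and 9.

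Lists of genes from feeding, reward, stress and cell type biology were then read against the brighter genes, of which 158 (1.86%) had an unadjusted p under 0.05 and were higher in high sugar feeding rats and 91 (1.07%) lower, with a median difference of 0.01 log2. Of all 8483 brighter genes 4695 had positive differences. Counts and medians below are over the brighter members of each list, and no member of any list passed the adjusted threshold. Members of a list can rise or fall together in 1 rat, so counts of direction are not independent evidence.

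Of 45 measured genes for feeding peptides and their receptors, 21 were brighter, with 1 higher, 0 lower and a median difference of 0.01 log2. The 1 was Nucb2, the precursor of the satiety peptide nesfatin-1. Nucb2 was at 6.40, 6.16, 6.35 and 6.32 log2 in high sugar feeding rats 1, 2, 3 and 7, against 6.09, 6.17, 6.00 and 6.20 log2 in low sugar feeding rats 5, 6, 8 and 9. The groups overlapped through rat 2, and the difference was 0.19 ± 0.06 log2 (SE, n = 4 each), or 0.10 with locomotion as a covariate. Npy, a peptide that promotes feeding in the hypothalamus and marks cortical interneurons, had -0.02 ± 0.07 log2, and Cck, a satiety peptide of gut and brain, -0.03 ± 0.09. Cartpt, another peptide that limits feeding, had 0.07 ± 0.10 log2. The median of the feeding list was 0.06 log2 with locomotion as a covariate.

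Receptors in this list gave small or uneven differences. Insr, the insulin receptor gene, had -0.05 ± 0.05 log2. Lepr, the leptin receptor gene, was at 4.16, 4.37, 4.77 and 3.56 log2 in high and 3.87, 3.14, 3.87 and 4.63 log2 in low sugar feeding rats, a spread larger than its difference of 0.34 ± 0.35 log2. Sstr2, a somatostatin receptor gene, had -0.17 ± 0.07 log2 (limma unadjusted p = 0.0576), and another, dimmer probe set had -0.18. Sweet taste and glucose handling genes had 26 brighter of 37 measured, with 0 higher, 0 lower and a median of -0.01 log2. That median was -0.125 log2 with prepulse inhibition as a covariate. The member of smallest p in this list was Slc2a3, the neuronal glucose transporter GLUT3, with 0.14 ± 0.06 log2 and -0.07 for another probe set.

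Among the 8 rats compared, the level of dopamine genes was highest in rat 7. All 10 brighter dopamine genes (of 19 measured) had positive differences, with 0 past an unadjusted p of 0.05 and a median of 0.12 log2, but the median was -0.07 without rat 7, and 0.40 or 0.85 with locomotion or prepulse inhibition as a covariate. Drd2, the D2 dopamine receptor gene, was at 4.10, 4.05, 4.71 and 7.57 log2 in high and 4.75, 4.13, 5.08 and 4.08 log2 in low sugar feeding rats. Of these 8 rats rat 7 was far above the rest, and the difference was 0.59 ± 0.77 log2 with it and -0.23 without it. The middle rats 4 and 10, left out of the comparison, were also high for Drd2, at 6.16 and 5.50 log2. Drd1, the D1 receptor gene, had 0.07 ± 0.89 log2, and -0.83 without rat 7. Penk, the enkephalin precursor gene, had 0.17 ± 0.50 log2 with rat 7 and -0.35 without it, and Pdyn, the dynorphin precursor gene, 0.19 ± 0.30 with it and -0.11 without it. Pdyn was at 7.87 log2 in rat 7, against 8.12 and 7.81 log2 in middle rats 4 and 10. Of 14 measured opioid and endocannabinoid genes 8 were brighter, with 1 higher, 0 lower and a median of 0.11 log2, which was 0.03 without rat 7 and 0.05 without rat 2.

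The 1 higher gene was Daglb, which makes the endocannabinoid 2-AG, with 0.11 ± 0.04 log2 and -0.10 for another probe set. With a covariate it was 0.17 for locomotion and 0.05 for prepulse inhibition. Cnr1, the cannabinoid receptor gene of cortical axon terminals, had 0.11 ± 0.09 log2. Oprm1, the mu opioid receptor gene, was below the brightness limit in all rats, at 2.13 to 2.20 log2 in high and 2.17 to 2.19 log2 in low sugar feeding rats.

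Striatal markers were high in rat 7 and in both middle rats. All 15 brighter striatal projection neuron markers (of 21 measured) had positive differences, 0 past an unadjusted p of 0.05, with a median of 0.15 log2. Their mean level, centred on all 10 rats, was -0.44, -0.47, -0.44 and 1.16 log2 in high sugar feeding rats 1, 2, 3 and 7, against -0.16, -0.36, 0.06 and -0.42 log2 in low sugar feeding rats 5, 6, 8 and 9. It was 0.70 and 0.38 log2 in middle rats 4 and 10. Hence 3 of 4 high rats lay below every low rat, and rats 7, 4 and 10 above all others. The median of the list was -0.19 log2 without rat 7, and 0.59 or 0.93 with locomotion or prepulse inhibition as a covariate. This list shares Adcy5, Drd1, Drd2, Pde10a, Ppp1r1b and Rgs9 with the dopamine list. It shares Penk and Pdyn with the opioid and endocannabinoid list, so these lists are not separate observations. In these bulk samples more cells of a type and more RNA per cell cannot be told apart, and the part of tissue content in any difference was not tested.

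**Figure D3:**
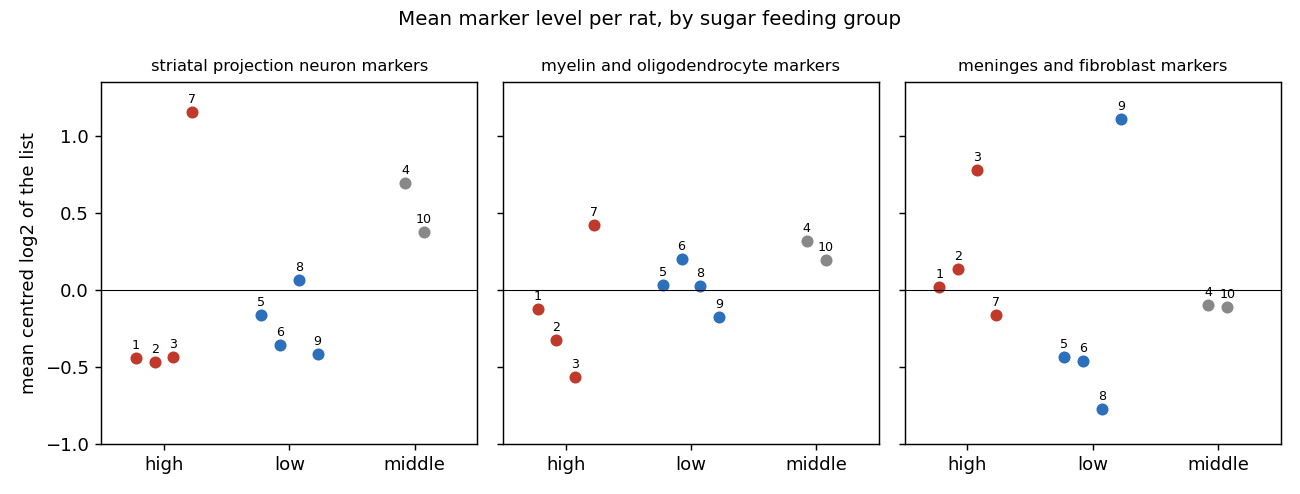
Mean centred log2 level of the brighter striatal, myelin and meningeal markers in each rat (points, numbered), by sugar feeding group. Rat 7 was highest in the striatal panel at 1.16 log2, followed by middle rats 4 and 10 at 0.70 and 0.38, and rats 9 and 3 were highest in the meningeal panel at 1.11 and 0.78 log2.

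Myelin genes leaned the other way. Of 22 measured myelin and oligodendrocyte markers 19 were brighter, 18 of them with negative differences, 0 past an unadjusted p of 0.05, and a median of -0.15 log2. Sox10, the master regulator of oligodendrocyte genes, was at 7.59, 7.75, 7.58 and 8.60 log2 in high and 8.23, 8.47, 8.39 and 8.07 log2 in low sugar feeding rats. High rats 1, 2 and 3 lay below all low rats and rat 7 above them, and the difference was -0.41 ± 0.23 log2 (SE, n = 4 each), or -0.65 without rat 7. Mag, a protein of the inner myelin wrap, had -0.33 ± 0.26 log2, and Mbp, a main myelin protein, -0.05 ± 0.13. The mean level of the list ran from -0.57 to 0.42 log2 in high and from -0.18 to 0.20 log2 in low sugar feeding rats. The median of the list was 0.0074 without rat 3, -0.07 without rats 3 and 9, and -0.33 without rat 7. With a covariate it was 0.03 for prepulse inhibition, -0.29 for locomotion, -0.29 for the spike-ins and -0.23 for the striatal markers.

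Meningeal and fibroblast markers had the largest median of all lists, 0.31 log2 over 12 brighter of 18 measured genes, 11 positive and 0 past an unadjusted p of 0.05. Col1a1, a fibrillar collagen gene, was at 8.53, 8.40, 9.22 and 7.65 log2 in high and 7.18, 7.31, 6.91 and 9.49 log2 in low sugar feeding rats. Low rat 9 exceeded every high rat, and the difference was 0.73 ± 0.60 log2 (SE, n = 4 each), 1.32 without rat 9 and 0.47 without rat 3. The growth factor gene Igf2 had 0.56 ± 0.54 log2. The median of the list was 0.09 without rat 3, 0.15 without rat 5, 0.20 without rat 6, 0.16 without rat 8, 0.72 without rat 9 and 0.54 without rats 3 and 9. With a covariate it was 0.96 for locomotion, 0.47 for prepulse inhibition and 0.53 for the spike-ins, and the mean of probe sets gave 0.20. The part of meninges in the pieces of cortex was not tested.

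Clock genes held 4 genes with an unadjusted p under 0.05 among 18 brighter of 20 measured, 1 higher and 3 lower, with a median of -0.03 log2. That median was -0.09 with locomotion and -0.08 log2 with prepulse inhibition as a covariate. The cellular clock is a loop in which CLOCK and BMAL1 switch on their own repressors, among them the PER and BHLHE40 proteins, through E-box sites (CACGTG) in DNA. Bhlhe40 was at 8.78, 8.82, 8.59 and 8.61 log2 in high sugar feeding rats 1, 2, 3 and 7, against 8.91, 9.03, 8.85 and 9.05 log2 in low sugar feeding rats 5, 6, 8 and 9. The groups did not overlap, and the difference was -0.26 ± 0.07 log2 (SE, n = 4 each), a ratio of 0.836. Nfil3, a repressor at D-box sites, went the other way, at 5.22, 5.27, 5.31 and 5.37 log2 in high and 5.16, 5.21, 5.07 and 5.18 log2 in low sugar feeding rats. Its difference was 0.14 ± 0.04 log2, without overlap, and 0.22 with locomotion as a covariate.

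Both promoters are shown because the 2 genes differed in opposite directions without overlap. The windows run from 250 bases before to 50 bases after the start site (RefSeq, build GRCr8, both + strand, chr4:143174200-143174499 for Bhlhe40 and chr17:12432126-12432425 for Nfil3), with E-boxes in capitals.
Bhlhe40: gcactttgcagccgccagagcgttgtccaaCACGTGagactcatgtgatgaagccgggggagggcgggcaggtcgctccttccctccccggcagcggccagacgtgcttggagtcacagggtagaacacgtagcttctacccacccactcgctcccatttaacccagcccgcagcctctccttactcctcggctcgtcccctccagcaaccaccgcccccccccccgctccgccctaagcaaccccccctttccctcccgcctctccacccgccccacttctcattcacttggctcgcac
Nfil3: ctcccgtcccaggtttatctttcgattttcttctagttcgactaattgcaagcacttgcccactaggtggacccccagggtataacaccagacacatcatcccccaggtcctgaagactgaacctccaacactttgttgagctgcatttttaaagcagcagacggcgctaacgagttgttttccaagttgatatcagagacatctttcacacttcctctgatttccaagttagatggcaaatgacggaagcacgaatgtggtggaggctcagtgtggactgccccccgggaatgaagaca
The Bhlhe40 window held 1 E-box, whose first base is at position -220 from the start site, and the Nfil3 window held 0. The motif CACGTG reads alike on both strands and was in 4 of the 19 listed promoters of measured clock genes, which belong to 17 genes, and in 8.62% of the 13242 listed promoters of tested genes. Besides Bhlhe40, it was in promoters of Bhlhe41, Nr1d1 and Tef, whose differences were -0.04, -0.31 and 0.15 log2. The listed promoters of Per1 (-0.51 log2) and Nr1d2 (-0.16 log2) held 0. Clock genes with the motif and those without it thus differed in both directions. A match describes letters and does not show a bound site.

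Per1 and Nr1d2 were the other lower clock genes. Per1, a clock repressor also induced by glucocorticoids and neuronal activity, was at 5.17, 5.25, 5.89 and 6.07 log2 in high and 6.30, 6.14, 6.01 and 5.97 log2 in low sugar feeding rats. Rats 1 and 2 were far below the rest, rats 3 and 7 were close to the low group, and the difference was -0.51 ± 0.21 log2 (SE, n = 4 each). With locomotion or prepulse inhibition as a covariate it was 0.05 or 0.09 log2. Nr1d2, a nuclear receptor that represses the Bmal1 gene, had -0.16 ± 0.06 log2, and 2 other probe sets had -0.44 and -0.15. Without rats 3 and 9 it was -0.08. Its relative Nr1d1, chosen after its values were seen and below the brightness limit, had -0.31 ± 0.10 log2 at a mean of 1.82, or -0.04 with locomotion as a covariate.

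**Figure D4:**
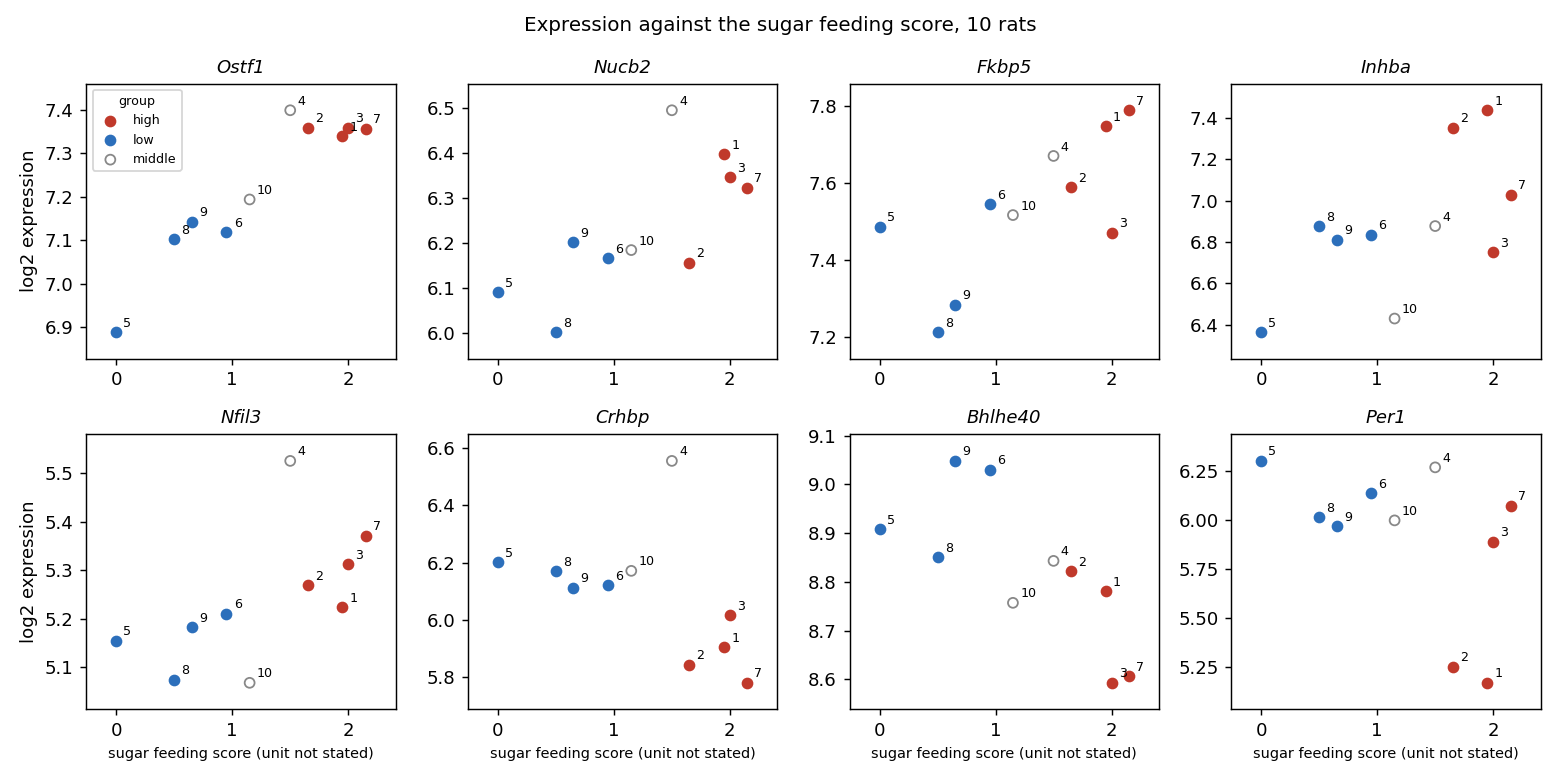
Log2 expression of 8 genes (y axes) against the sugar feeding score (x axes, unit not stated) in all 10 rats, numbered, with the middle rats open. Crhbp and Bhlhe40 of the high rats lay below those of every low rat, and Per1 was low in rats 1 and 2.

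Stress and activity genes gave mixed directions. Of 22 measured glucocorticoid and stress genes 18 were brighter, with 1 higher, 2 lower (Crhbp and Per1) and a median of 0.03 log2. That median was 0.14 log2 with prepulse inhibition as a covariate. The higher gene was Fkbp5, a glucocorticoid-induced brake on the glucocorticoid receptor, at 7.75, 7.59, 7.47 and 7.79 log2 in high and 7.49, 7.55, 7.21 and 7.28 log2 in low sugar feeding rats. The groups overlapped through rat 3, and the difference was 0.27 ± 0.10 log2 (SE, n = 4 each), with 0.04, 0.17 and 0.17 when locomotion, prepulse inhibition or the spike-ins were a covariate. Nr3c1, the glucocorticoid receptor gene, had 0.01 ± 0.11 log2, and Crh -0.09 ± 0.07.

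Immediate-early genes, which neurons switch on within minutes of activity, had 22 brighter of 30 measured, 1 higher, 1 lower (Per1) and a median of 0.08 log2. The higher gene was Inhba, an activin subunit gene, with 7.44, 7.35, 6.75 and 7.03 log2 in high and 6.36, 6.84, 6.88 and 6.81 log2 in low sugar feeding rats. Rat 3 lay among the low rats, and the difference was 0.42 ± 0.18 log2 (SE, n = 4 each) but 0.05 and 0.02 log2 with locomotion or prepulse inhibition as a covariate. Arc, a synaptic plasticity gene, ran from 8.82 to 11.18 log2 in high and from 8.44 to 10.83 log2 in low sugar feeding rats, a spread far above its difference of 0.46 ± 0.63 log2. Without rat 3 the Arc difference was 0.02 log2. Fos had 0.51 ± 0.50 log2, Egr1 0.11 ± 0.10, Ier5 -0.18 ± 0.09 and the growth factor gene Bdnf 0.18 ± 0.11. With locomotion as a covariate Arc had 2.39 and Fos 2.06 log2, and with prepulse inhibition 1.83 and 1.24. The median of the list was 0.0022 without rat 3, -0.0022 without rat 5 and 0.33 log2 with locomotion as a covariate.

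Of 27 measured glutamate genes 25 were brighter, with 2 higher, 0 lower and a median of 0.05 log2. That median was -0.05 with locomotion and -0.13 log2 with prepulse inhibition as a covariate. The 2 higher genes were the AMPA receptor gene Gria4, with 0.10 ± 0.04 log2, and the kainate receptor gene Grik4, with 0.08 ± 0.03 log2. Of 16 measured GABA genes 14 were brighter, with 0 higher, 0 lower and a median of 0.05 log2. The GABA median was -0.02 with locomotion and -0.13 log2 with prepulse inhibition as a covariate. Of 15 measured serotonin genes 3 were brighter, with 0 past an unadjusted p of 0.05 and a median of 0.05. Htr2a, the cortical serotonin receptor gene, was among them, with -0.27 ± 0.28 log2. The serotonin median was 0.32 log2 with prepulse inhibition as a covariate and 0.15 without rats 3 and 9.

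Noradrenaline and acetylcholine genes had 10 brighter of 23 measured, with 0 higher, 1 lower and a median of -0.08 log2. That median was 0.06 log2 with locomotion as a covariate. Chrm3, a muscarinic receptor gene, was at 6.86, 7.49, 7.42 and 7.09 log2 in high and 7.35, 7.52, 7.79 and 7.80 log2 in low sugar feeding rats. The groups overlapped, and the difference was -0.40 ± 0.16 log2 (SE, n = 4 each), turning to 0.17 with locomotion as a covariate. Adrb1, the beta-1 adrenergic receptor gene, had -0.18 ± 0.08 log2 without overlap, its nearest rats of the groups being 5.61 and 5.62 log2. Synaptic vesicle genes had 27 brighter of 31 measured, 0 higher, 1 lower (the synaptotagmin gene Syt5, -0.11 ± 0.04 log2) and a median of -0.01. With locomotion as a covariate Syt5 had -0.04 log2. The median of the vesicle list was -0.17 log2 with prepulse inhibition as a covariate.

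Of 13 measured nonsense-mediated decay factors 12 were brighter, with 1 higher, 0 lower and a median of -0.0019 log2. The higher gene was Upf3b, which links the exon junction complex to decay, at 7.49, 7.40, 7.10 and 7.39 log2 in high and 6.43, 7.13, 6.90 and 6.88 log2 in low sugar feeding rats. High rat 3 lay just below low rat 6, at 7.10 and 7.13 log2, so the groups overlapped, and the difference was 0.51 ± 0.15 log2 (SE, n = 4 each), or 0.20 with prepulse inhibition as a covariate. Its partner Upf2 had 0.08 ± 0.04 log2.

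Cytosolic ribosomal protein genes had 29 brighter of 32 measured, 24 positive, 0 past an unadjusted p of 0.05 and a median of 0.03 log2. That median was -0.18 with locomotion and -0.13 log2 with prepulse inhibition as a covariate. Oxidative phosphorylation genes had 54 brighter of 55 measured, 0 past an unadjusted p of 0.05 and a median of 0.0055 log2. With prepulse inhibition as a covariate their median was -0.11 log2.

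Among the remaining cell type markers, the superficial layer list had 0 higher and 1 lower of 11 brighter genes, with a median of 0.02 log2. The 1 was Cux2, an upper layer transcription factor gene, with -0.24 ± 0.09 log2 (SE, n = 4 each) and 0.01 for another probe set. With locomotion as a covariate Cux2 had -0.0083 log2. No member passed an unadjusted p of 0.05 in the deep layer list (15 brighter, median 0.04 log2), the interneuron list (16 of 23, -0.02), the astrocyte list (13 of 13, 0.03), the microglial list (8 of 16, -0.05) and the endothelial and pericyte list (12 of 16, -0.01). The same held for the olfactory bulb list (5 of 12, median 0.04 log2), the blood list (2 of 6, 0.05) and the choroid plexus and ependymal list (1 of 10, -0.08). With locomotion as a covariate the median was 0.07 log2 for the interneuron list, -0.17 for the astrocyte list and -0.14 for the olfactory bulb list. With prepulse inhibition it was -0.23 for the superficial layer list, -0.21 for the astrocyte list and -0.47 for the endothelial and pericyte list.

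**Figure D5:**
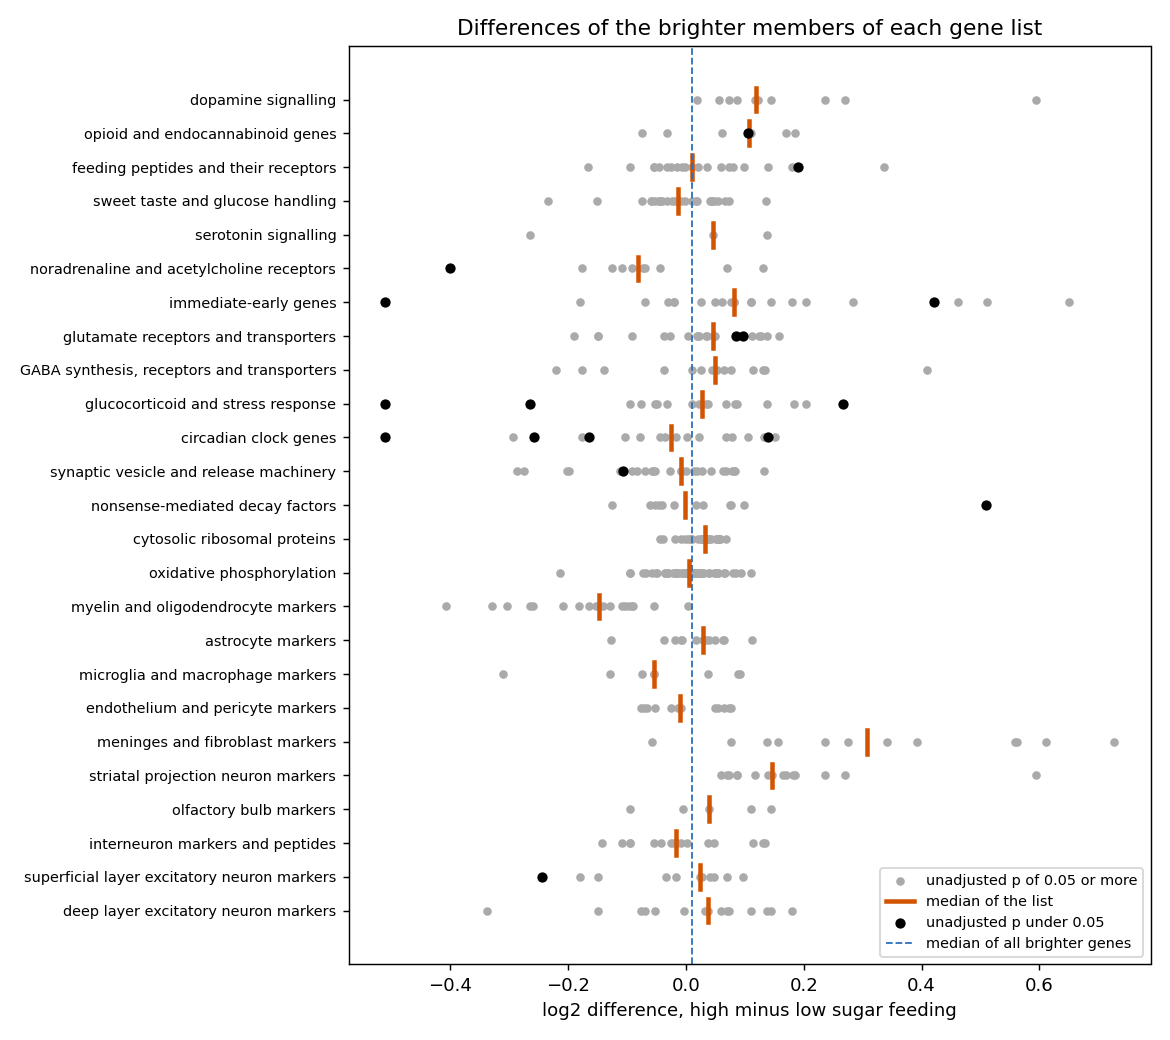
Log2 difference, high minus low sugar feeding (x axis), of each brighter member (points) of the 25 lists with 3 or more such members, with list medians as bars and the median of all brighter genes as a dashed line. The median of the meningeal list lay at 0.31 and that of the myelin list at -0.15.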

How the data were processed

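The authors deposited 1 table of log2 expression values per probe set for 10 Affymetrix rat arrays, made with GCRMA under R 2.6.2, per the submitters' processing notes. No GCRMA version was named there. GCRMA shrinks dim probe sets, so their differences are understated. Of 31042 probe sets other than 57 controls, 20826 had 1 symbol in the platform annotation, 436 several and 9780 none. The gene numbers of 20758 matched RefSeq (GRCr8), which also gave the promoters. For each gene the probe set of highest mean over 10 arrays was kept (14217 genes), and brighter genes had a mean of at least 3.99 log2, the median over probe sets.

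Groups were compared with limma 3.58.1 in R 4.3.3 (lmFit, eBayes; two-sided; Benjamini-Hochberg over 14217 genes), tested on simulated data. Behaviours and array measures had exact permutation tests. The genes named were, per direction, the 10 brighter of smallest p and the 5 of largest difference without overlap, then up to 3 per list and a panel of 21 genes, of which those given are reported. The rats, the 27 lists and the rule were chosen with earlier results of these data known. Alternatives changed the normalization, brightness filter, probe set rule, variance model, rats, score cut and covariates. The all-probe-set fit, the RNA integrity measures and the fit without rats 3 and 9 were added after seeing the data.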

Additional observations from a re-analysis of the deposited data

Results flagged for a closer look

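In 17 of 166 groups of 4 rats tested, for genes named and array measures, 1 rat stood apart from the other 3. The nominal rate is about 1 in 20 for independent groups. These groups were not independent, since all came from the same 8 rats, and many of the genes were named for small p. The nominal rate is therefore not a chance rate for this set. Rat 7 of the high sugar feeding group was at 9.599 log2 for Drd1 (others 5.789 to 6.229), 12.37 for Penk (10.2 to 10.38), 8.601 for Sox10 (7.577 to 7.751) and 5.601 for Arl2 (5.824 to 5.868). Rat 9 of the low sugar feeding group was at 9.491 log2 for Col1a1 (others 6.911 to 7.306) and 11.2 for Igf2 (8.727 to 9.145). Rat 5, of score 0, was apart in the low group at 6.889 log2 for Ostf1, 5.944 for Arl2, 6.363 for Inhba, 9.922 for Ier5 and 4.019 for the array median. In the high group rat 1 was at 7.34 log2 for Ostf1, within 0.02 of the others, rat 2 at 9.28 for Aprt and 8.16 for Upf2, and rat 3 at 9.601 for Nr3c1. In the low group rat 6 was at 5.875 log2 for Adrb1 and 4.61 for Cartpt.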

How the results depend on the processing

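The limma count at an adjusted p of 0.05 was 0 under every alternative run, with 161 genes higher and 99 lower at an unadjusted p under 0.05 in the fit reported. Lower genes numbered 165 with median centring, 202 with quantile normalization, 267 with locomotion, 471 with prepulse inhibition and 190 with the striatal markers as covariate. The spike-in covariate gave 242 higher and 255 lower, and moderation with trend and robust 103 higher. Genes without overlap numbered 39 higher and 332 lower with median centring, 150 lower with quantile normalization, and 19 higher and 12 lower with the 5 highest against the 5 lowest scores. The fit on every probe set gave 314 higher and 195 lower (144 and 123 without overlap), of 31042 probe sets against 14217 genes in the fit reported. Leaving out rats 3 and 9 gave 321 and 65 (616 and 139). Leaving out 1 rat gave 119 to 403 higher, 81 to 277 lower, 126 to 440 higher without overlap and 90 to 409 lower without overlap. Groups of fewer rats separate more easily by chance, and larger groups less easily. Counts without overlap are therefore not comparable between fits with unlike numbers of rats.

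Of 1510 comparisons of a gene under an alternative, 1457 kept their sign and 53 reversed, and the cause was not tested. The 1457 include fits that cannot change a difference: the brightness filter, the variance model and the fit with the middle rats as a further group. Many of the genes were also named for small p in these same rats, so the count of kept signs does not measure robustness. The reversed values follow. With locomotion as covariate the log2 difference was 0.1696 for Chrm3, 0.0656 for Sstr2, 0.0208 for Adrb1, -0.0967 for Cnr1, 0.2021 for Npy, -0.155 for Nr3c1, 0.0603 for Crh, 0.0493 for Per1 and -0.1946 for Egr1. With prepulse inhibition it was 0.0364 for Sox10, 0.0803 for Mag, -0.1688 for Cnr1, 0.1494 for Npy, -0.064 for Nr3c1, 0.0054 for Crh, 0.0899 for Per1, -0.1634 for Egr1 and -0.0557 for Bdnf. With the spike-ins it was -0.0777 for Drd1, 0.0403 for Npy and -0.0731 for Nr3c1, and with the striatal markers -0.3322 for Drd1, -0.0599 for Penk, 0.0018 for Cck and -0.001 for Nr3c1. Quantile normalization gave 6e-04 for Oprm1 and -0.0138 for Nr3c1, the mean of probe sets -0.0625 for Nr3c1, the slope on the score 0.0223 for Npy and the 5 against 5 split 0.0184 for Insr. Without rats 3 and 9 it was 0.0016 for Oprm1, 0.0263 for Cck and 0.0148 for Sst. Leaving out 1 rat gave -0.0251 to 0.1198 for Cartpt, -0.0843 to 0.0372 for Cck, -0.8332 to 0.4366 for Drd1, -0.2263 to 0.9459 for Drd2, -0.4448 to 0.0135 for Htr2a, -0.1491 to 0.0447 for Mbp, -0.0518 to 0.0285 for Npy, -0.0346 to 0.1128 for Nr3c1, -0.0194 to 0.0048 for Oprm1, -0.1092 to 0.3294 for Pdyn and -0.3462 to 0.379 for Penk.

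Without 1 rat the behaviour differences were 2915 to 4269 for locomotion, -23.6 to -16.97 for prepulse inhibition, -311.5 to -118.2 for startle and -56.26 to -0.9717 for the plus maze. The log2 array differences were -0.003748 to 0.01962 for the median, -0.005492 to 0.03575 for the upper quartile, 0.04764 to 0.1331 for spike-ins, 0.0006464 to 0.03268 for unnamed probe sets, 0.01703 to 0.104 for beta-actin, -0.01364 to 0.0392 for GAPDH and 0.07133 to 0.1885 for hexokinase. No paired analysis was possible because the groups share no replicate number. Dim probe sets limit what can be seen of receptors such as Oprm1.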
